A study of Homo sapiens with 18 samples.

Results

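The SRF-ICA1L fusion was compared with the empty vector in MSC-hTERT, human mesenchymal stem cells immortalized with telomerase. The comparison used 6 of the 18 libraries of the series, 3 labelled SRF-ICA1L and 3 labelled pMSCV, and was chosen by these labels alone. pMSCV is the name of a retroviral vector and serves here as the control. The SRF-ICA1L cells express a fusion that joins SRF to ICA1L, and both groups share the hTERT line, a serum-containing medium with FGF-2, ascorbic acid and heparin, and stranded mRNA libraries, per the labels' protocols. The labels do not say whether a line was a clone or a mixed population, nor whether replicates 1 to 3 came from separate cultures, so p-values measure only the spread between these libraries, which may be technical. Other groups of 3 libraries are cells labelled SRF, SRF-FOXO1 and SRF-RELA, which are compared below, and SRF-PDGFRB, which enters only the fit's estimate of the spread.

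SRF, or serum response factor, belongs to the MADS-box transcription factors. It binds a short DNA element, the CArG box, and works with cofactors of the myocardin family, whose entry into the nucleus follows actin polymerization, and with ternary complex factors downstream of ERK signalling. Its known targets are genes of smooth and striated muscle, of the actin cytoskeleton and of the immediate early response to growth factors. ICA1L (islet cell autoantigen 1 like) is a protein with a membrane-binding domain of the BAR family and is not a known transcription factor.

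Libraries held between 23959470 and 28794272 counts in SRF-ICA1L and between 23264166 and 28877142 in pMSCV, and levels are given as CPM, a gene's counts per 1000000 counts of its library. Differences are log2 changes of SRF-ICA1L over pMSCV from edgeR's quasi-likelihood test, with p-values adjusted by Benjamini-Hochberg over all tested genes. FN1 (fibronectin) took 4.74%, 7.44% and 4.83% of the counts in SRF-ICA1L and 4.62%, 3.68% and 3.37% in pMSCV. Mitochondrially encoded genes took between 4.37% and 4.85% in SRF-ICA1L and between 5.05% and 5.28% in pMSCV, without overlap, and their part in the results was not tested. Of 15 such genes in the edgeR test, 0 had an unadjusted p under 0.05, and their median log2 change was -0.058. Markers of mesenchymal stem cells (10 genes, among them THY1, ENG, NT5E and CD44) summed to between 4540 and 4670 CPM in SRF-ICA1L and between 4110 and 5280 CPM in pMSCV, and each of the 10 reached 1 CPM in at least 1 library. MYOD1, MYOG, MYF5 and PAX7 of the skeletal muscle markers, ADIPOQ and LEP of the adipocyte markers, ESRP1 and GRHL2 of the epithelial markers and CD3E of the haematopoietic markers had no counts in the 6 libraries.

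The genes joined in the construct were examined first, because they check the labels; their counts hold native and construct reads together. ICA1L (ENSG00000163596; GRCh38 chromosome 2, 202773176 to 202871766) was at 14.7, 12.8 and 13.1 CPM in pMSCV replicates 1, 2 and 3 and at 153, 119 and 134 CPM in SRF-ICA1L. The groups did not overlap, and the log2 change was 3.43 with a standard error of 0.16 (adjusted p 9.16e-09). SRF (ENSG00000112658; GRCh38 chromosome 6, 43171269 to 43181506) was at 61.1, 64.4 and 57.3 CPM in pMSCV replicates 1, 2 and 3 and at 274, 277 and 274 CPM in SRF-ICA1L, with little spread inside either group. Its log2 change was 2.28 with a standard error of 0.24 (adjusted p 0.000313). Both genes were called in each of the 6 fits that left out 1 library, and with the replicate number as a block. Of the related BAR-domain genes ICA1, ARFIP1, ARFIP2 and PICK1, none was called in either fit (2 were higher at an unadjusted p under 0.05 without the block, and 0 were called with DESeq2), and their log2 changes ran from -0.22 to 0.40.

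**Figure D1:**
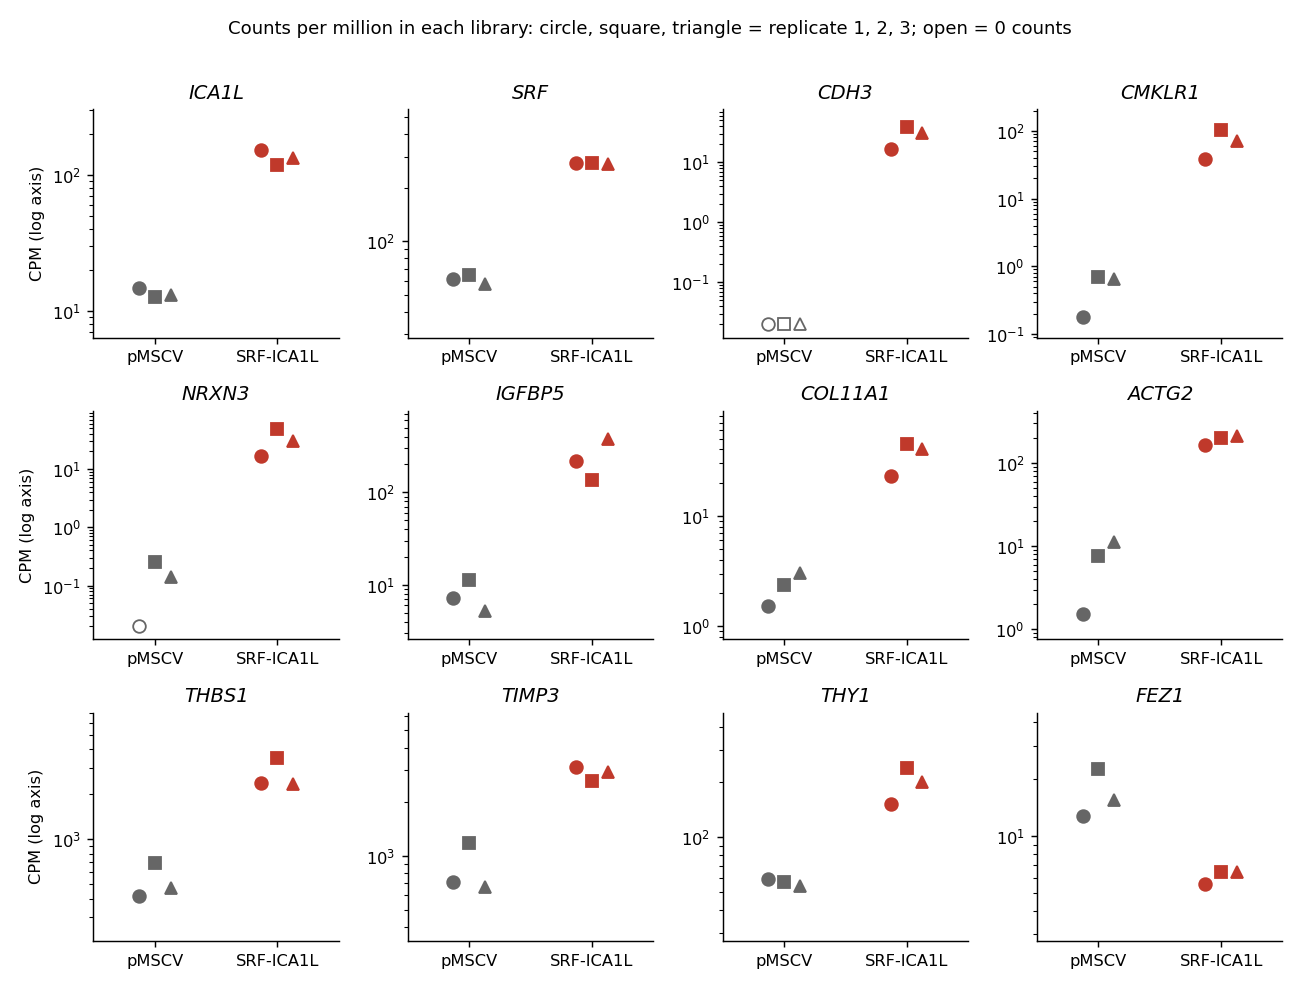
CPM on log axes, scaled separately in each panel, for 12 genes in the 3 pMSCV and 3 SRF-ICA1L libraries; symbols mark the replicate number and open symbols a count of 0. In each panel the groups do not overlap: 11 genes are higher in SRF-ICA1L, and FEZ1 is lower. THY1 was added to the panels after its values were seen.

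Genes that rose far outnumbered those that fell. Of 18544 genes tested, 85 were higher and 2 lower in SRF-ICA1L at an adjusted p under 0.05, which is 0.458% and 0.0108% of the genes tested and 0.469% in either direction. When the replicate number entered the fit as a block, 604 genes were higher and 260 lower (3.26% and 1.4%, 4.66% in either direction), and the 87 genes called without the block were among them. A called gene here is one past this threshold, and both fits are given below. Without 1 library the count without the block lay between 29 (without pMSCV replicate 3) and 148 (without SRF-ICA1L replicate 1), and it was 34 without pMSCV replicate 1, 41 without pMSCV replicate 2 and 45 without SRF-ICA1L replicate 2. With the block it was 132 without the libraries numbered 3, 275 without those numbered 2 and 694 without those numbered 1. Of the 87 genes, 23 were called in each of the 6 fits without 1 library. In bulk RNA, more cells of a type and more RNA per cell cannot be told apart.

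**Figure D2:**
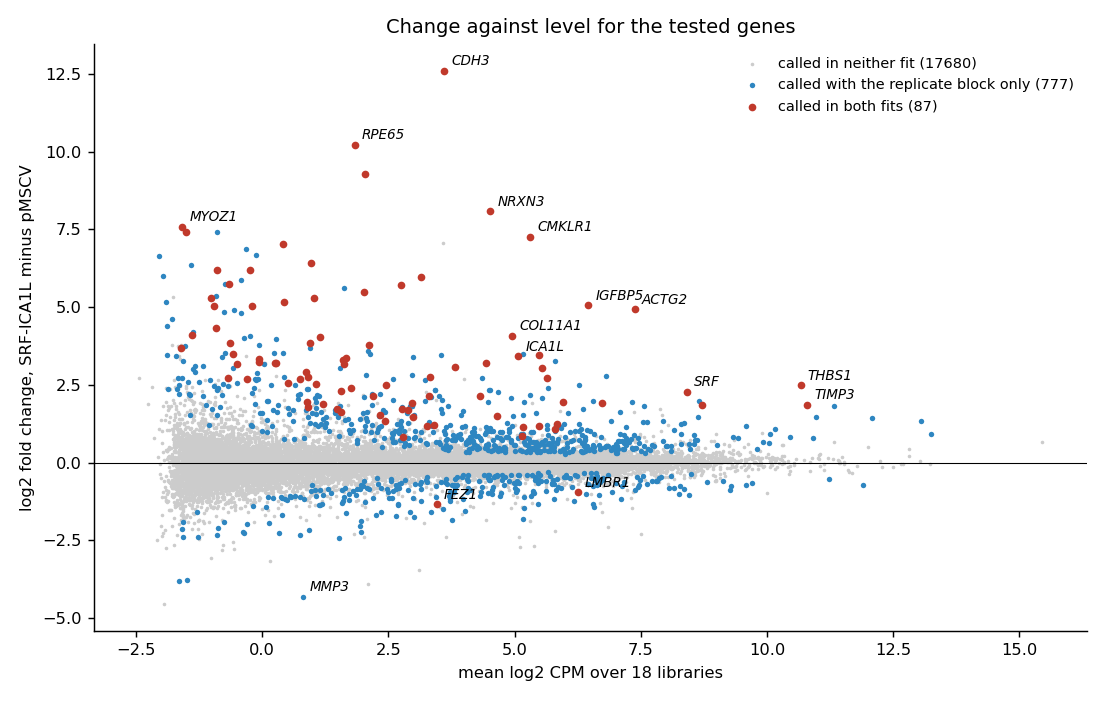
Log2 fold change of SRF-ICA1L over pMSCV against the mean log2 CPM over 18 libraries for the 18544 tested genes. Red points, 85 higher and 2 lower, were called in both fits; the 777 blue points, 519 higher and 258 lower, were called with the replicate block only.

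The 87 called genes did not overlap between the groups in CPM. Over all tested genes, SRF-ICA1L was higher without overlap in 5.69% and lower without overlap in 16%. These CPM lack the TMM scaling factors used in the test, which were 0.915 to 0.984 in SRF-ICA1L and 1.013 to 1.048 in pMSCV. Without the factors, CPM are lower in SRF-ICA1L relative to pMSCV across genes. Of the 85 that rose, 38 (44.7%) were under 1 CPM in each pMSCV library, as were 3611 of the 18544 tested genes (19.5%), and 37 of the 85 were at 1 CPM or more in each. A gene this low in pMSCV can pass the count filter through a group where it is high, and it can hardly be called lower. The gap between these shares is therefore not a result about the genes. Protein-coding genes made up 76 of the 87 (87.4%), against 73.1% of the tested genes, by the gene types of GENCODE release 29. Long non-coding RNAs made up 6 (6.9%), against 16.7%.

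Several of the largest rises named here were in genes that pMSCV cells expressed at trace levels. CDH3, which encodes P-cadherin, had no counts in pMSCV and was at 16.5, 38.1 and 30.6 CPM in SRF-ICA1L replicates 1, 2 and 3. Against a floor of 3 counts over the 3 pMSCV libraries, it was at least 772-fold higher (adjusted p 0.0005). RPE65, the retinoid isomerase of the visual cycle, also had no counts in pMSCV, was at 2.26, 9.31 and 4.63 CPM in SRF-ICA1L and was at least 149.8-fold higher (adjusted p 0.0274). ITIH3, a heavy chain of the inter-alpha-trypsin inhibitors, had 1 count in pMSCV and 805 in SRF-ICA1L. That is a ratio of 829.5 with an exact 95% interval of 148 to 32805 that covers counting error only (adjusted p 0.00307). Replicate 2 was the highest and replicate 1 the lowest of the SRF-ICA1L libraries for these 3 genes. CDH3 and ITIH3 stayed called in each of the 6 fits lacking 1 library, and RPE65 in 1 of the 6 fits lacking 1 library (highest adjusted p 0.132, without pMSCV replicate 3). Reads of CDH3 and of its antisense gene CDH3-AS1, which was also called, cannot be told apart without strand in the counting, and the strand setting is not given in the sources used here.

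CMKLR1, the receptor for chemerin, was at 0.177, 0.688 and 0.658 CPM in pMSCV replicates 1, 2 and 3 and at 38.8, 104 and 70.6 CPM in SRF-ICA1L. Its log2 change was 7.27 with a standard error of 0.70 (adjusted p 0.000313), with the lowest SRF-ICA1L library far above the highest pMSCV library. NRXN3 (neurexin 3, a synaptic adhesion protein) was at 0, 0.258 and 0.139 CPM in pMSCV replicates 1, 2 and 3 and at 16.9, 49.4 and 30.7 CPM in SRF-ICA1L, and the log2 change was 8.09 with a standard error of 1.28 (adjusted p 0.00937). KRT17, a keratin of basal epithelia, was at 0.389, 0.344 and 0.139 CPM in pMSCV replicates 1, 2 and 3 and at 7.05, 31.7 and 11.4 CPM in SRF-ICA1L, and the log2 change was 5.98 with a standard error of 1.10 (adjusted p 0.0241). In both genes replicate 2 was the highest SRF-ICA1L library. TSPAN2, a tetraspanin, was at 0.0708, 0.559 and 0.104 CPM in pMSCV replicates 1, 2 and 3 and at 4.87, 13.8 and 10.5 CPM in SRF-ICA1L, and the log2 change was 5.49 with a standard error of 0.91 (adjusted p 0.0107). EXTL1, a glycosyltransferase of the exostosin family, was at 0.248, 0.129 and 0.104 CPM in pMSCV replicates 1, 2 and 3 and at 6.69, 7.33 and 4.05 CPM in SRF-ICA1L, and the log2 change was 5.30 with a standard error of 0.59 (adjusted p 0.000485). LINC01614, a long non-coding RNA, was at 0.708, 0.172 and 0.658 CPM in pMSCV replicates 1, 2 and 3 and at 18.1, 40.1 and 17.7 CPM in SRF-ICA1L, and the log2 change was 5.71 with a standard error of 0.76 (adjusted p 0.00276). In neither did the groups overlap. CMKLR1, EXTL1 and LINC01614 stayed called in each of the 6 fits lacking 1 library. Without pMSCV replicate 3 the adjusted p rose to 0.0847 for NRXN3, 0.166 for KRT17 and 0.0995 for TSPAN2, which kept their calls in 3, 2 and 4 of the 6 fits; each was called with the block.

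Most smooth muscle contractile genes had positive log2 changes, and few passed the test without the block. The gene lists used here and below were written with earlier results of these data known, so their shares called are description only. Of 29 contractile genes listed, 23 were tested. Without the block 3 rose (ACTG2, PLN and LMOD1), and 12 rose with it. These are 13% and 52.2% of those tested, against 0.469% and 4.66% of all tested genes called. None fell in either fit (0 lower at an unadjusted p under 0.05 in either, and 7 higher and 0 lower with DESeq2). The median log2 change was 1.03, against -0.0054 over all tested genes, and 21 of the 23 were above 0. ACTG2, the enteric smooth muscle actin, was at 1.52, 7.61 and 11.4 CPM in pMSCV replicates 1, 2 and 3 and at 165, 200.5 and 211 CPM in SRF-ICA1L. The groups were well apart, and the log2 change was 4.93 with a standard error of 0.84 (adjusted p 0.014) without the block and 5.21 with a standard error of 0.61 (adjusted p 0.000503) with it. PLN (phospholamban, an inhibitor of the calcium pump of the sarcoplasmic reticulum) was at 0.283, 0.344 and 0.312 CPM in pMSCV replicates 1, 2 and 3 and at 4.83, 4.65 and 3.17 CPM in SRF-ICA1L, and the log2 change was 3.85 with a standard error of 0.50 (adjusted p 0.00186). LMOD1 (leiomodin 1, which nucleates actin filaments in smooth muscle) was at 2.34, 5.97 and 2.63 CPM in pMSCV replicates 1, 2 and 3 and at 17.1, 42.2 and 31.9 CPM in SRF-ICA1L, and the log2 change was 3.20 with a standard error of 0.65 (adjusted p 0.0454). PLN stayed called in each of the 6 fits lacking 1 library, ACTG2 in 3 of the 6 fits lacking 1 library (highest adjusted p 0.0886, without pMSCV replicate 2), and LMOD1 in 1 of the 6 fits lacking 1 library (highest adjusted p 0.234, without pMSCV replicate 3).

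Other members of the contractile apparatus passed the test with the block only. CNN1 (calponin 1, an actin-binding regulator of contraction) was at 4.21, 15.5 and 9.04 CPM in pMSCV replicates 1, 2 and 3 and at 17.7, 50.05 and 43.2 CPM in SRF-ICA1L. Replicate 2 was the highest library of both groups, and the log2 change was 2.08 without the block (adjusted p 0.249) and 2.11 with it (adjusted p 0.000674). TAGLN (transgelin) was at 72.2, 264 and 146 CPM in pMSCV replicates 1, 2 and 3 and at 327, 740.5 and 668 CPM in SRF-ICA1L, with a log2 change of 1.97 without the block (adjusted p 0.219) and 2.05 with it (adjusted p 0.00113). MYL9, a myosin regulatory light chain, was at 178, 275 and 218 CPM in pMSCV replicates 1, 2 and 3 and at 416, 734 and 564 CPM in SRF-ICA1L, with a log2 change of 1.47 without the block (adjusted p 0.0949) and 1.45 with it (adjusted p 0.000773). ACTA2, the vascular smooth muscle actin, was at 15.4, 15.2 and 21.5 CPM in pMSCV replicates 1, 2 and 3 and at 66.7, 136 and 68.99 CPM in SRF-ICA1L, with a log2 change of 2.51 without the block (adjusted p 0.0876) and 2.38 with it (adjusted p 0.0122). JPH2 (junctophilin 2, which joins the plasma membrane to the sarcoplasmic reticulum), SMTN, CALD1, TPM1 and PDLIM7 were the other members called with the block, with log2 changes of 2.41, 0.72, 0.67, 1.02 and 0.52. Of the fits with the block and without the libraries of 1 replicate number, CNN1 and MYL9 were called in 3 of 3, TAGLN and JPH2 in 2 of 3, and ACTA2 and PDLIM7 in 1 of 3. The largest adjusted p among these fits was 0.0509 for TAGLN without the libraries numbered 1, and, without those numbered 3, 0.14 for JPH2, 0.13 for ACTA2 and 0.219 for PDLIM7.

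Smooth muscle myosin and myocardin were called in neither fit. MYH11, the smooth muscle myosin heavy chain, was at 1.204, 0.516 and 1.21 CPM in pMSCV replicates 1, 2 and 3 and at 0.752, 1.53 and 0.918 CPM in SRF-ICA1L, and the groups overlapped. Its log2 change was 0.24 without the block (adjusted p 0.958) and -0.033 with it (adjusted p 0.989). MYOCD (myocardin, the SRF cofactor of smooth and cardiac muscle) was at 0.106, 0.946 and 1.28 CPM in pMSCV replicates 1, 2 and 3 and at 0.198, 2.29 and 0.167 CPM in SRF-ICA1L, and only SRF-ICA1L replicate 2 exceeded all 3 pMSCV libraries. Its log2 change was 0.38 without the block (adjusted p 0.955) and -0.15 with it (adjusted p 0.936). DES (desmin) was too low to be tested, at no more than 0.17 CPM in a library.

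**Figure D3:**
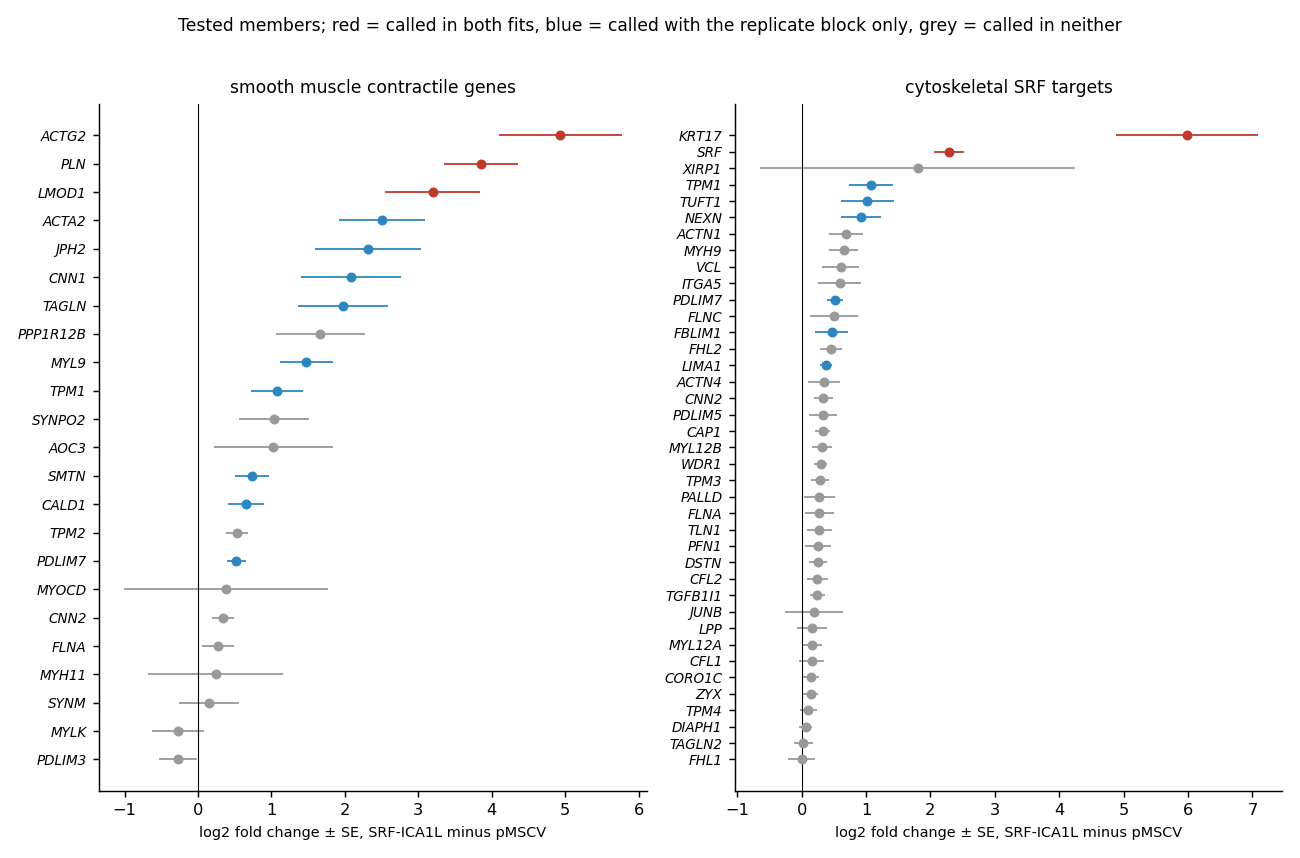
Log2 fold change with its standard error for the 23 smooth muscle contractile genes and 39 cytoskeletal SRF targets tested, in the fit without the block. In the first panel ACTG2, PLN and LMOD1 were called in both fits, and 9 more genes with the replicate block only.

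General cytoskeletal targets of SRF had a smaller median change than the smooth muscle genes. Of 39 tested, 2 rose without the block (KRT17 and SRF itself) and 8 with it. These are 5.13% and 20.5%, against 0.469% and 4.66% of all tested genes called. SRF, whose counts include reads of the construct, was among them in both fits. The list shares members with the smooth muscle list, and TPM1 and PDLIM7 were counted among the block calls of both. None fell in either fit (0 lower at an unadjusted p under 0.05 in either, and 4 higher and 0 lower with DESeq2). The median log2 change was 0.31, and 38 of the 39 were above 0. With the block, LIMA1 (an actin-bundling LIM protein) rose by 0.38 (adjusted p 0.0199), NEXN (nexilin) by 0.91 (adjusted p 0.016) and TUFT1 by 0.98 (adjusted p 0.00979), and LIMA1 was called in 0 of 3 block fits without 1 replicate number. VCL (vinculin, a linker of focal adhesions) was at 387, 519 and 424 CPM in pMSCV replicates 1, 2 and 3 and at 508, 658 and 704 CPM in SRF-ICA1L, with a log2 change of 0.60 without the block (adjusted p 0.459) and 0.60 with it (adjusted p 0.138). Among SRF cofactors and partners, 2 of 16 tested genes rose, SRF and CSRP1, and both fits called them. That is 12.5%, against 0.469% of all tested genes without the block and 4.66% with it, and SRF counts include construct reads. CSRP1, a LIM protein that bridges SRF and GATA factors in smooth muscle, was at 159.9, 227 and 206 CPM in pMSCV replicates 1, 2 and 3 and at 488, 818 and 661 CPM in SRF-ICA1L, and the log2 change was 1.85 with a standard error of 0.34 (adjusted p 0.019). It kept this call in 2 of the 6 fits lacking 1 library (highest adjusted p 0.132, without pMSCV replicate 1).

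All 6 actin genes had positive log2 changes, but only ACTG2 was called in both fits and ACTA2 with the block. The share called was 16.7% without the block and 33.3% with it, against 0.469% and 4.66% of all tested genes. ACTC1, the cardiac actin, had no counts in pMSCV and was at 0.198, 0.625 and 1.002 CPM in SRF-ICA1L. It was at least 16.1-fold higher against the floor of 3 counts and was not called (adjusted p 0.561, and 0.0928 with the block). ACTG2, ACTA2 and ACTC1 encode near-identical proteins, and whether similar stretches of sequence split their reads in the counting was not tested. Reads of ACTA2 and its antisense gene ACTA2-AS1 cannot be told apart without strand. Of striated muscle and myogenic genes, 43 were listed and 17 tested. Of the 17, 5.88% were called without the block and 23.5% with it, against 0.469% and 4.66% of all tested genes. MYOZ1 (myozenin 1, a Z-disc protein) rose in both fits, from no counts in pMSCV to 0.594, 1.597 and 0.376 CPM, at least 24.04-fold (adjusted p 0.0142), with its call kept in 3 of the 6 fits lacking 1 library (highest adjusted p 0.0788, without pMSCV replicate 3). With the block, LDB3 (a Z-disc adaptor) and ANKRD1 (a stress-responsive sarcomeric ankyrin repeat protein) rose as well, by 3.36 (adjusted p 0.00823) and 3.97 (adjusted p 0.00208). FBXO32, a muscle ubiquitin ligase, fell by 0.76 (adjusted p 0.00432). ANKRD1 was called in 3 of 3 block fits without 1 replicate number, LDB3 in 2 and FBXO32 in 1 (highest adjusted p 0.14, without the libraries numbered 3). MYOD1, MYOG, MYF5 and PAX7, the regulators of the skeletal muscle lineage, had no counts.

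Promoters of the called genes were searched for the CArG box, the element SRF binds, in RefSeq windows of 300 bases (250 before to 50 after a gene's start, GRCh38.p14). The box was taken in its exact form, which reads as itself on either strand, with no other motif searched. It was present in 1.29% of all 27305 promoters and in 138 of 12153 promoters of tested genes (1.14%). Of the genes that rose without the block, 64 had a promoter and 4 (6.25%) held a box: ACTG2, RPE65, SRF and GPR183. The SRF counts include reads of the construct, and without SRF 3 of 63 promoters (4.76%) held one. Of the genes that rose with the block, 430 had a promoter and 17 (3.95%) held a box, and of those that fell with the block, 185 had a promoter and 0 held one. A match is a description of the sequence and not a bound site. Shown here are 4 promoters of genes that rose, with the box in capitals, to place it beside the values: ACTG2 (chr2:73892758-73893057, plus strand), RPE65 (chr1:68449905-68450204, minus strand), LDB3 (chr10:86668261-86668560, plus strand) and FILIP1L (chr3:99876124-99876423, minus strand). They read 5′ to 3′ on the gene's strand. The first bases of the boxes lie at -110 and -73 in ACTG2, -52 in RPE65, -57 in LDB3 and -60 in FILIP1L, counted from the start site. GPR183 and FILIP1L (an actin-associated protein that rose by 1.27 (adjusted p 0.00141) with the block) were named after the search.
ACTG2: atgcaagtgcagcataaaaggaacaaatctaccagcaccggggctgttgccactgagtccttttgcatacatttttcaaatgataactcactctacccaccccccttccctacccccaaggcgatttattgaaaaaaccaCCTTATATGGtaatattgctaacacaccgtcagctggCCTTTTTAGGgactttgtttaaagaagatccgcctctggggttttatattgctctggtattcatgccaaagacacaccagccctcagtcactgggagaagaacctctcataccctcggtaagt
RPE65: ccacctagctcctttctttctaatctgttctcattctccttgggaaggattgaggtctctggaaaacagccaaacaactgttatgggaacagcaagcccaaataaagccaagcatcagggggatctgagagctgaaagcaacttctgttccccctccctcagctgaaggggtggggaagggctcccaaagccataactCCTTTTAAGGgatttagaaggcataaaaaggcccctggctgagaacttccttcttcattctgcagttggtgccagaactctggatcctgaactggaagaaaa
LDB3: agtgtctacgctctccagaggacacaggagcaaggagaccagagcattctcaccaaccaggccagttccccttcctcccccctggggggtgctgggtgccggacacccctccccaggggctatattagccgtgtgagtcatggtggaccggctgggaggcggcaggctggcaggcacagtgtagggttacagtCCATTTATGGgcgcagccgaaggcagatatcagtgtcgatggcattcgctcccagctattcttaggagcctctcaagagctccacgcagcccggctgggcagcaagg
FILIP1L: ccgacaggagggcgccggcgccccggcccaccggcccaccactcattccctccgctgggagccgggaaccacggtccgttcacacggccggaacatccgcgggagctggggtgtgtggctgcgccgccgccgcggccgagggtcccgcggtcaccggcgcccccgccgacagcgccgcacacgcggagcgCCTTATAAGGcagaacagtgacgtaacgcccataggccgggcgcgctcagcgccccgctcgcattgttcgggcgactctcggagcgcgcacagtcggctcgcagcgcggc

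Some genes of the extracellular matrix rose, most of them with the block only. None of those listed fell in either fit; at an unadjusted p under 0.05, 2 collagens and 0 other matrix genes were lower without the block, 3 and 3 with it, and 0 with DESeq2. Of 35 collagen genes tested, 1 rose without the block and 7 with it (2.86% and 20%, against 0.469% and 4.66% of all tested genes called). COL11A1, a chain of a minor fibrillar collagen, was at 1.52, 2.36 and 3.05 CPM in pMSCV replicates 1, 2 and 3 and at 23.2, 44.6 and 40.7 CPM in SRF-ICA1L, with each SRF-ICA1L library well above pMSCV. Its log2 change was 4.09 with a standard error of 0.51 (adjusted p 0.00186), and it stayed called in each of the 6 fits lacking 1 library. COL1A1, the main chain of type I collagen, was at 6131, 6936 and 5166 CPM in pMSCV replicates 1, 2 and 3 and at 8266, 20593 and 13200 CPM in SRF-ICA1L, and its log2 change was 1.33 without the block (adjusted p 0.128) and 1.24 with it (adjusted p 0.0135). COL1A2, COL5A3, COL5A2, COL4A1 and COL4A2 were called with the block only, with log2 changes of 0.87, 2.78, 0.74, 1.34 and 0.73. COL1A1, COL1A2 and COL5A3 were each called in 1 of 3 block fits without 1 replicate number, with highest adjusted p of 0.253 and 0.279 without the libraries numbered 3 and 0.127 without those numbered 1. The median over the collagens was 0.15, with 20 of 35 above 0.

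Of 56 matrix glycoproteins, elastic fibre and matricellular genes tested, 1 rose without the block and 12 with it, with a median of 0.20. These are 1.79% and 21.4%, against 0.469% and 4.66% of all tested genes called. THBS1 (thrombospondin 1, a matricellular glycoprotein) was at 416, 695 and 474 CPM in pMSCV replicates 1, 2 and 3 and at 2366, 3518 and 2333 CPM in SRF-ICA1L. The lowest SRF-ICA1L library was over the highest pMSCV library, and the log2 change was 2.50 with a standard error of 0.44 (adjusted p 0.016). With the block, SPARC rose by 1.60 (adjusted p 0.00558), POSTN (periostin) by 1.36 (adjusted p 0.0313), BGN (biglycan) by 0.88 (adjusted p 0.00448), MFAP4 (a microfibril-associated glycoprotein) by 1.05 (adjusted p 0.00514) and LOX (lysyl oxidase, which crosslinks collagen and elastin) by 0.85 (adjusted p 0.0132). POSTN, BGN and MFAP4 were each called in 1 of 3 block fits without 1 replicate number, with highest adjusted p of 0.328 and 0.178 without the libraries numbered 3 and 0.143 without those numbered 2. FN1 was at 46219, 36817 and 33694 CPM in pMSCV replicates 1, 2 and 3 and at 47401, 74420 and 48337 CPM in SRF-ICA1L. The groups did not overlap, but replicate 1 differed little between them, and replicate 2 was the highest SRF-ICA1L library. The log2 change of FN1 was 0.66 without the block (adjusted p 0.501) and 0.63 with it (adjusted p 0.258). THBS1 stayed called in 2 of the 6 fits lacking 1 library (highest adjusted p 0.122, without pMSCV replicate 1). It was called in 2 of 3 block fits without 1 replicate number.

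**Figure D4:**
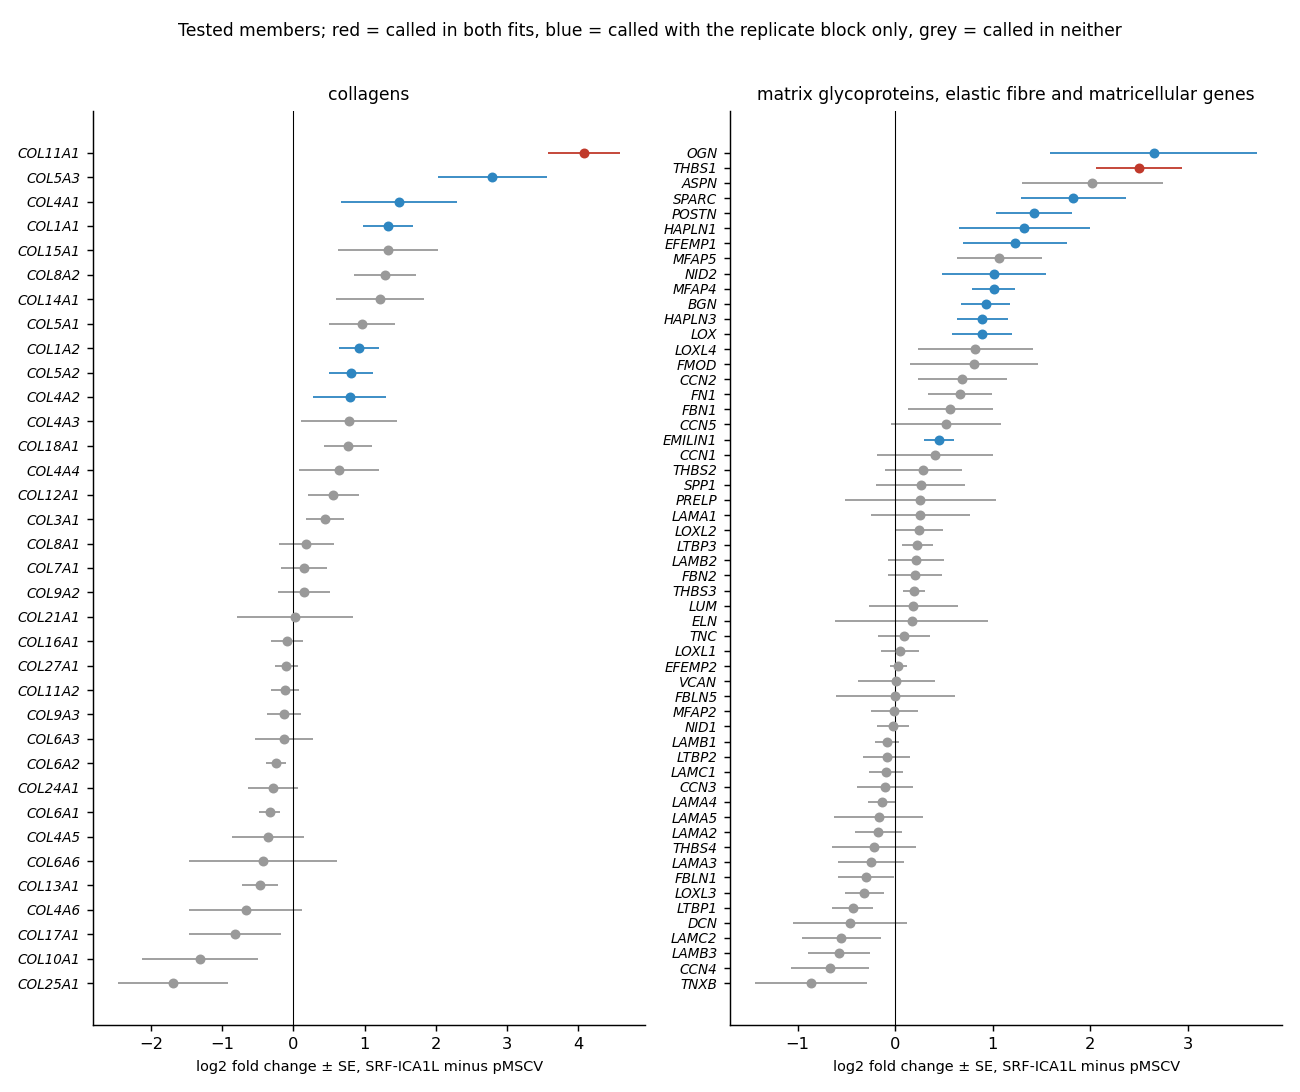
Log2 fold change with its standard error for the 35 collagen genes and the 56 matrix glycoprotein, elastic fibre and matricellular genes tested, in the fit without the block. COL11A1 and THBS1 were called in both fits, and 6 collagens and 11 other matrix genes with the replicate block only, each of them higher.

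Metalloproteinases and their inhibitors went in both directions. TIMP3, a matrix-bound inhibitor of metalloproteinases, was at 715, 1170.3 and 668 CPM in pMSCV replicates 1, 2 and 3 and at 3133, 2598 and 2912 CPM in SRF-ICA1L, and the log2 change was 1.87 with a standard error of 0.29 (adjusted p 0.00683) with the call kept in 4 of the 6 fits lacking 1 library (highest adjusted p 0.066, without pMSCV replicate 3). In block fits without 1 replicate number it was called in 1 of 3 (highest adjusted p 0.0756, without the libraries numbered 3). TIMP3 was the only one of 25 tested genes of this list that rose. The share called in either direction was 4% without the block and 12% with it, against 0.469% and 4.66% of all tested genes. MMP3 (stromelysin 1) was at 4.001, 0.516 and 6.44 CPM in pMSCV replicates 1, 2 and 3 and at 0.396, 0.104 and 0 CPM in SRF-ICA1L, with a wide spread in pMSCV. Its log2 change was -4.31 without the block (adjusted p 0.13) and -4.37 with it (adjusted p 0.042). MMP14, a membrane-type collagenase, fell with the block by 0.83 (adjusted p 0.0229). Both MMP calls held in 1 of 3 block fits without 1 replicate number.

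Among genes of insulin-like growth factor signalling, IGFBP5 and IGFBP3 rose in both fits. Of 16 tested genes, 2 rose without the block, and 3 rose and 4 fell with it. The share called was 12.5% without the block and 43.8% with it, against 0.469% and 4.66% of all tested genes. IGFBP5 was at 7.12, 11.2 and 5.16 CPM in pMSCV replicates 1, 2 and 3 and at 216, 136 and 378 CPM in SRF-ICA1L; replicate 3 was the highest, and the log2 change was 5.06 with a standard error of 0.63 (adjusted p 0.00186). IGFBP3 was at 12.1, 21.2 and 20.5 CPM in pMSCV replicates 1, 2 and 3 and at 109.6, 69.04 and 151 CPM in SRF-ICA1L, and the log2 change was 2.72 with a standard error of 0.47 (adjusted p 0.0141). IGFBP7 was at 164, 276 and 173 CPM in pMSCV replicates 1, 2 and 3 and at 317, 599 and 414 CPM in SRF-ICA1L, with a log2 change of 1.24 without the block (adjusted p 0.16) and 1.22 with it (adjusted p 0.000112). The genes that fell with the block were STC2, PAPPA, INSR and IGF2BP3. STC2 (stanniocalcin 2, an inhibitor of the protease PAPPA) was at 71.8, 105 and 197 CPM in pMSCV replicates 1, 2 and 3 and at 38.7, 43.5 and 46.8 CPM in SRF-ICA1L, with a log2 change of -1.41 without the block (adjusted p 0.0881) and -1.32 with it (adjusted p 0.00135). PAPPA, which cleaves IGF binding proteins, fell with the block by 1.92 (adjusted p 0.0383), and INSR (the insulin receptor) by 0.90 (adjusted p 0.0476). IGFBP5 stayed called in each of the 6 fits lacking 1 library, and IGFBP3 in 2 of the 6 fits lacking 1 library (highest adjusted p 0.115, without pMSCV replicate 1). IGFBP5, IGFBP7 and STC2 were called in 3 of 3 block fits without 1 replicate number, IGFBP3 in 2, PAPPA in 1 and INSR in 0.

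Of 38 WNT pathway genes tested, ROR2 rose in both fits, and with the block 3 rose and 4 fell. The share called was 2.63% without the block and 18.4% with it, against 0.469% and 4.66% of all tested genes. ROR2, a receptor tyrosine kinase for WNT5A, was at 0.0708, 0 and 0.0693 CPM in pMSCV replicates 1, 2 and 3 and at 3.41, 2.36 and 2.25 CPM in SRF-ICA1L, and the log2 change was 5.73 with a standard error of 0.72 (adjusted p 0.00215); it kept this call in each of the 6 fits without 1 library. SFRP2, a secreted modulator of WNT signalling, was at 7.47, 3.35 and 12.3 CPM in pMSCV replicates 1, 2 and 3 and at 2.14, 0.625 and 1.88 CPM in SRF-ICA1L, with a log2 change of -2.23 without the block (adjusted p 0.171) and -2.22 with it (adjusted p 0.00566). The frizzled receptors FZD4 and FZD7 rose with the block, by 0.90 (adjusted p 0.0362) and 0.84 (adjusted p 0.0443), while FZD6 fell by 0.44 (adjusted p 0.0368). NKD2 and WNT7B also fell with the block, with log2 changes of -4.02 (adjusted p 0.0237) and -1.17 (adjusted p 0.0375). In block fits without 1 replicate number, SFRP2 was called in 2 of 3 (highest adjusted p 0.0709, without the libraries numbered 3) and FZD4 and FZD6 in 1 of 3 each (highest 0.27 without those numbered 3 and 0.435 without those numbered 2). Of 45 growth factor ligands and receptors tested, GDF6 and AGTR1 rose in both fits (4.44% called without the block, against 0.469% of all tested genes). GDF6, a ligand of the BMP family, was at 0.673, 1.33 and 0.866 CPM in pMSCV replicates 1, 2 and 3 and at 7.602, 8.75 and 7.304 CPM in SRF-ICA1L, and the log2 change was 3.17 with a standard error of 0.56 (adjusted p 0.0141). AGTR1, the angiotensin II receptor that acts on smooth muscle, was at 21.8, 22.5 and 25.7 CPM in pMSCV replicates 1, 2 and 3 and at 45.97, 36.4 and 66.3 CPM in SRF-ICA1L, and the log2 change was 1.19 with a standard error of 0.24 (adjusted p 0.0339). Without pMSCV replicate 1 the adjusted p was 0.115 for GDF6 and 0.189 for AGTR1, and each stayed called in 2 of the 6 fits.

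With the block, 8 growth factor ligands and receptors rose and 3 fell (24.4% called, against 4.66% of all tested genes). PDGFB, a ligand of the PDGF receptors, was at 0, 0 and 0.0346 CPM in pMSCV replicates 1, 2 and 3 and at 0.515, 0.695 and 1.17 CPM in SRF-ICA1L. With 1 count in pMSCV, the ratio was 62.9 with an exact 95% interval of 10.9 to 2523 for counting error only (adjusted p 0.144 without the block and 0.00892 with it). PDGFA rose by 0.82 (adjusted p 0.019) and HBEGF, a ligand of the EGF receptor, by 1.10 (adjusted p 0.0104). MET, the HGF receptor, fell by 0.77 (adjusted p 0.0167) and VEGFA by 0.76 (adjusted p 0.0352). In the block fits without 1 replicate number, PDGFB was called in 0 of 3 (highest adjusted p 0.0687, without the libraries numbered 2) and HBEGF in 1 of 3 (0.0809, likewise). FLT1 and EGF were among the other members that rose with the block, and EDNRA was the other that fell.

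Of 31 immediate early genes tested, SRF alone was called without the block (3.23%, against 0.469% of all tested genes). SRF counts include reads of the construct, and no other member was called in this fit. With the block 7 rose, SRF among them, and 2 fell (29%, against 4.66%), and the median log2 change was -0.098. FOS was at 832, 13.6 and 622 CPM in pMSCV replicates 1, 2 and 3 and at 836, 34.4 and 427 CPM in SRF-ICA1L, and EGR1 was at 845, 63.7 and 541 CPM in pMSCV replicates 1, 2 and 3 and at 913, 224 and 463 CPM in SRF-ICA1L. Replicate 2 was the lowest library of both groups in both genes, and neither was called in either fit. Their log2 changes were -0.098 and 0.23 without the block and 0.31 and 0.66 with it. EGR2 was at 21.4, 5.97 and 9.97 CPM in pMSCV replicates 1, 2 and 3 and at 79.6, 41.4 and 46.9 CPM in SRF-ICA1L; it too was lowest in replicate 2 of each group. Within each number SRF-ICA1L was the higher, and the log2 change was 2.26 without the block (adjusted p 0.125) and 2.40 with it (adjusted p 4.87e-05). KLF2, IER5, DUSP5, EGR3 and EGR4 rose with the block, by 1.22, 0.83, 0.76, 1.16 and 3.20. FOSL1 (a partner of JUN in AP-1) and NR4A2 fell, by 1.16 (adjusted p 0.00279) and 1.28 (adjusted p 0.0445). EGR2 was called in 3 of 3 block fits without 1 replicate number, KLF2 in 2 and EGR4 in 0 (highest adjusted p 0.112, without the libraries numbered 3).

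Of adhesion genes, CDH3 was the only cadherin of 14 tested that was called without the block (7.14%, against 0.469% of all tested genes). With the block 21.4% of the cadherins were called, against 4.66%, and CDH11, the mesenchymal cadherin, rose by 0.68 (adjusted p 0.0084). CDH1 (E-cadherin) was called higher with the block as well, but stayed at trace levels, at 0, 0.04299 and 0 CPM in pMSCV and 0.396, 0.313 and 0.292 CPM in SRF-ICA1L (ratio 26.8, exact 95% interval 4.402 to 1098). The 10 listed keratin genes that were tested had positive log2 changes. Of these KRT17 was called in both fits and KRT18 and KRT80 with the block. The share called was 10% without the block and 30% with it, against 0.469% and 4.66% of all tested genes. KRT12, a corneal keratin that is not on the list and was named after its values were seen, was at 0.0354, 0.04299 and 0 CPM in pMSCV replicates 1, 2 and 3 and at 1.23, 2.74 and 2.05 CPM in SRF-ICA1L. Its 2 counts in pMSCV against 159 in SRF-ICA1L give a ratio of 81.9 (exact 95% interval 22.3 to 682), called in both fits (adjusted p 0.0123, and 0.000438 with the block) and in 2 of the 6 fits lacking 1 library (highest adjusted p 0.101, without pMSCV replicate 3). KRT18, a keratin of simple epithelia, was at 24.3, 50.8 and 53.2 CPM in pMSCV replicates 1, 2 and 3 and at 63.4, 191 and 133 CPM in SRF-ICA1L, with a log2 change of 1.73 without the block (adjusted p 0.286) and 1.65 with it (adjusted p 0.000416). Of 20 integrin genes, 0 were called without the block (3 at an unadjusted p under 0.05, and 1 called with DESeq2). With the block 2 rose (ITGA7 and ITGA4) and 2 fell (ITGA10 and ITGB8), which is 20%, against 4.66% of all tested genes. ITGA7, the laminin-binding integrin of muscle, rose by 1.57 (adjusted p 0.00654). Among axon guidance and neuronal adhesion genes, NRXN3 rose and FEZ1 fell in both fits. With the block 3 of 50 rose and 4 fell. Those that fell were FEZ1, EPHA7, NTN1 and SLIT2, with log2 changes of -1.33, -1.82, -2.33 and -0.83. NTN1 was called in 0 of 3 block fits without 1 replicate number. The share called was 4% without the block and 14% with it, against 0.469% and 4.66% of all tested genes. SEMA3E, a secreted semaphorin, was at 0.496, 2.36 and 5.61 CPM in pMSCV replicates 1, 2 and 3 and at 6.89, 27.1 and 21.1 CPM in SRF-ICA1L, with a log2 change of 2.83 without the block (adjusted p 0.326) and 3.14 with it (adjusted p 0.000143). In block fits without 1 replicate number, KRT18 and SEMA3E were called in 3 of 3, ITGA7 in 2, CDH11, KRT80, ITGA4, ITGA10 and ITGB8 in 1 each and CDH1 in 0, with a highest adjusted p of 0.293 for CDH1 without the libraries numbered 3.

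Only FEZ1 and LMBR1 fell without the block. FEZ1, an adaptor of kinesin transport in neurons, was at 12.8, 22.5 and 15.5 CPM in pMSCV replicates 1, 2 and 3 and at 5.54, 6.46 and 6.43 CPM in SRF-ICA1L, and the log2 change was -1.35 with a standard error of 0.23 (adjusted p 0.0107). It stayed called in 5 of the 6 fits lacking 1 library (highest adjusted p 0.0626, without pMSCV replicate 2). LMBR1, a membrane protein whose gene holds a limb enhancer of SHH in an intron, was at 110.1, 133 and 105 CPM in pMSCV replicates 1, 2 and 3 and at 73.1, 42.7 and 50.9 CPM in SRF-ICA1L, and the log2 change was -0.95 with a standard error of 0.20 (adjusted p 0.044). It stayed called in 1 of the 6 fits lacking 1 library (highest adjusted p 0.271, without SRF-ICA1L replicate 2). In both genes each SRF-ICA1L library was under each pMSCV library, and each gene was called in 2 of 3 block fits without 1 replicate number. With the block, the genes with the largest falls under the naming rule included ANGPTL4 (an inhibitor of lipoprotein lipase), SFRP2, PREX1 (an activator of RAC), PAPPA, SGPP2 (a sphingosine phosphate phosphatase), TNFRSF1B (the TNF receptor 2), EPHA7 and the tight junction gene CLDN11. ANGPTL4 was at 7.75, 1.93 and 5.23 CPM in pMSCV replicates 1, 2 and 3 and at 1.47, 0.278 and 0.876 CPM in SRF-ICA1L, with a log2 change of -2.43 without the block (adjusted p 0.307) and -2.45 with it (adjusted p 0.0197). PREX1 was at 20.3, 21.2 and 15.8 CPM in pMSCV replicates 1, 2 and 3 and at 9.11, 3.92 and 1.63 CPM in SRF-ICA1L, with a log2 change of -1.85 without the block (adjusted p 0.322) and -2.12 with it (adjusted p 0.00687). TNFRSF1B was at 8.78, 8.34 and 10.2 CPM in pMSCV replicates 1, 2 and 3 and at 4.63, 1.46 and 1.67 CPM in SRF-ICA1L, with a log2 change of -1.71 without the block (adjusted p 0.102) and -1.85 with it (adjusted p 0.00398). EPHA7, an ephrin receptor, was at 11.6, 11.6 and 18.7 CPM in pMSCV replicates 1, 2 and 3 and at 4.63, 1.91 and 5.13 CPM in SRF-ICA1L, with a log2 change of -1.75 without the block (adjusted p 0.237) and -1.82 with it (adjusted p 0.00693). CLDN11 fell by 1.71 and SGPP2 by 1.86 with the block, and the metalloprotease gene ADAM8 and the potassium channel gene KCNJ15 by 1.69 and 1.65. In block fits without 1 replicate number, ANGPTL4, PREX1, SGPP2 and CLDN11 were called in 2 of 3, and TNFRSF1B, EPHA7, ADAM8 and KCNJ15 in 1 of 3.

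The naming rule for rises called with the block only gave, beside PDGFB, ANKRD1, LDB3 and SEMA3E, TENM2 and LMCD1. TENM2 (teneurin 2, a transmembrane adhesion protein) was at 5.52, 14.5 and 12.2 CPM in pMSCV replicates 1, 2 and 3 and at 50.6, 124 and 112 CPM in SRF-ICA1L, with a log2 change of 3.28 without the block (adjusted p 0.0636) and 3.27 with it (adjusted p 0.00277). LMCD1, a LIM-domain cofactor of transcription, was at 1.95, 3.65 and 3.36 CPM in pMSCV replicates 1, 2 and 3 and at 10.4, 56.5 and 21.9 CPM in SRF-ICA1L, with a log2 change of 3.45 without the block (adjusted p 0.0722) and 3.19 with it (adjusted p 0.000696). LMCD1 was called in 3 of 3 block fits without 1 replicate number and TENM2 in 2.

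The shares called with the block, beside 4.66% of all tested genes, were 17.6% for bone, fat and cartilage lineage genes, 15.8% for FOXO targets, 8% for muscle ion channel genes, 7.69% for inflammatory genes, 6.9% for YAP-TEAD and TGF-beta targets, 2.38% for cell cycle genes and 0% for interferon response genes. None of the 36 interferon response genes was called in either fit (2 at an unadjusted p under 0.05 without the block and 4 with it, and 1 called with DESeq2). Of 42 cell cycle and DNA replication genes, none was called without the block (1 at an unadjusted p under 0.05, 0 with DESeq2) and only CDKN2B, an inhibitor of CDK4 and CDK6, with it (0.73 (adjusted p 0.0247); called in 0 of 3 block fits without 1 replicate number). Of 29 YAP-TEAD and TGF-beta targets, ANKRD1 and BHLHE40 rose with the block and none without (3 at an unadjusted p under 0.05, and 1 called with DESeq2). Of 39 inflammatory and NF-kB genes, CMKLR1 rose in both fits and BIRC3 and MMP3 fell with the block; the median was -0.63, and 5 of the 39 were above 0. At an unadjusted p under 0.05, 3 were higher and 11 lower without the block and 4 higher and 12 lower with it; DESeq2 called 1 higher and 2 lower. Of 17 bone, fat and cartilage lineage genes, HAPLN1 rose and SOX5 and PLIN2 fell with the block, and 0 were called without it (3 at an unadjusted p under 0.05, 0 with DESeq2). Of 19 FOXO targets, PDK4, INSR and FBXO32 fell with the block, and 0 were called without it (3 at an unadjusted p under 0.05, 0 with DESeq2). Of 25 muscle ion channel and calcium handling genes, JPH2 rose and KCNMA1 fell with the block, and 0 were called without it (3 at an unadjusted p under 0.05, and 1 called with DESeq2). In block fits without 1 replicate number, JPH2 was called in 2 of 3, and BHLHE40, BIRC3, MMP3, HAPLN1, PLIN2, FBXO32 and KCNMA1 in 1 of 3 each. PDK4, INSR and SOX5 were called in 0 of 3, with highest adjusted p of 0.265 for PDK4 without the libraries numbered 3, and 0.462 for INSR and 0.309 for SOX5 without those numbered 2.

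Among markers of other cell types, the endothelial list (7 genes) summed to between 147 and 404 CPM in SRF-ICA1L and between 80.5 and 101 CPM in pMSCV, and the part of such cells in the results was not tested. Most of that sum was TEK, the angiopoietin receptor, at 60.4, 82.6 and 70.8 CPM in pMSCV replicates 1, 2 and 3 and at 116, 381 and 261 CPM in SRF-ICA1L, and its log2 change was 1.95 without the block (adjusted p 0.119) and 1.79 with it (adjusted p 0.00172). Of the 5 endothelial markers tested, 2 rose with the block (TEK and VWF, 40% against 4.66% of all tested genes), 3 were higher in SRF-ICA1L without overlap (TEK, VWF and CDH5), and the median log2 change was 1.51. VWF, the von Willebrand factor, was at 0.106, 0.387 and 0.208 CPM in pMSCV replicates 1, 2 and 3 and at 0.436, 1.04 and 1.46 CPM in SRF-ICA1L, with a log2 change of 2.19 without the block (adjusted p 0.337) and 2.22 with it (adjusted p 0.0221). TIE1, a receptor related to TEK, was at 9.099, 3.87 and 10.2 CPM in pMSCV replicates 1, 2 and 3 and at 17.8, 11.04 and 8.097 CPM in SRF-ICA1L; the groups overlapped and it was called in neither fit. Of the other defining markers, CDH5, ERG and CLDN5 stayed at or under 1.11 CPM in each of the 6 libraries, and PECAM1 was at 10.7, 8.898 and 19.8 CPM in pMSCV replicates 1, 2 and 3 and at 11.6, 9.76 and 5.18 CPM in SRF-ICA1L. THY1 (CD90), a marker of mesenchymal stem cells and fibroblasts, was at 59.02, 57.2 and 54.4 CPM in pMSCV replicates 1, 2 and 3 and at 152, 239 and 201 CPM in SRF-ICA1L, and the log2 change was 1.91 with a standard error of 0.29 (adjusted p 0.00683). It stayed called in 5 of the 6 fits lacking 1 library (highest adjusted p 0.0617, without pMSCV replicate 3). CD248 (endosialin), another marker of this list, rose with the block by 1.09 (adjusted p 0.000438). THY1 and CD248 do not stand for the mesenchymal stem cell list, of which 2 genes were called higher and 0 lower with the block. Over its 10 genes the median log2 change without the block was 0.0546, with 6 above 0 and a lowest value of -0.58. THY1, CD248, TEK, VWF and TIE1 were chosen from the marker lists after their values were seen. Haematopoietic markers (9 genes) summed to between 3.13 and 4.22 CPM in SRF-ICA1L and between 1.03 and 2.08 CPM in pMSCV, neural markers (7) to between 7.72 and 10.6 and between 8.17 and 13.2 CPM, epithelial markers (8) to between 3.16 and 4.09 and between 4.34 and 5.92 CPM, skeletal muscle markers (6) to between 2.96 and 3.17 and between 2.98 and 4.71 CPM, and adipocyte markers (5) to no more than 0.417 CPM. Of the 9 haematopoietic markers, 8 were under 1 CPM in each of the 6 libraries. The other, CD34, was at 0.46, 1.16 and 1.25 CPM in pMSCV replicates 1, 2 and 3 and at 2.57, 2.36 and 3.13 CPM in SRF-ICA1L. It was called higher with the block only.

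The fusion was also compared with the SRF libraries directly, in the same fit. In this and the next comparisons a level is followed by its SD over 3 libraries and a log2 difference by its standard error, after ±. In this comparison 0.636% of tested genes were higher and 0.146% lower without the block, and 3.16% and 1.57% with it. Of the 87 genes called against pMSCV, 65 also differed from SRF in the same direction (78 with the block). Both comparisons share the SRF-ICA1L libraries. CMKLR1 was at 0.707 ± 0.26 CPM (SD, n = 3) in SRF, and SRF-ICA1L exceeded it by 6.74 ± 0.67 (adjusted p 0.00036) on the log2 scale. COL11A1 was at 3.8 ± 0.597 CPM in SRF, and the difference was 3.33 ± 0.48 (adjusted p 0.00409). For IGFBP5, at 4.91 ± 1.85 CPM in SRF, it was 5.69 ± 0.65 (adjusted p 0.000944), for TIMP3, at 752 ± 223 CPM, 2.01 ± 0.30 (adjusted p 0.0032), and for PLN, at 0.314 ± 0.189 CPM, 3.81 ± 0.50 (adjusted p 0.00155). These 5 genes kept the call against SRF in each of the 6 fits without 1 library of the 2 groups. ACTG2 was at 12.3 ± 13.3 CPM in SRF and differed by 4.04 ± 0.80 (adjusted p 0.0297), a call kept in 1 of 6 (highest adjusted p 0.172, without SRF replicate 2). SRF itself was the only one of the 87 called in the opposite direction: it was at 945 ± 236 CPM in SRF, above the fusion, with a log2 difference of -1.70 ± 0.23 (adjusted p 0.00157).

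LMBR1 and LMOD1 were among the 8 genes that were called against pMSCV and not against SRF in either fit. LMBR1 was at 63.6 ± 9.31 CPM in SRF, and SRF-ICA1L differed from it by -0.12 ± 0.20 (adjusted p 0.873). LMOD1 was at 22.3 ± 1.84 CPM in SRF, with a difference of 0.54 ± 0.58 (adjusted p 0.784). FEZ1 was at 11.2 ± 2.19 CPM in SRF; the difference of -0.78 ± 0.23 (adjusted p 0.148) was not called without the block and was -0.77 (adjusted p 0.0381) with it. A difference that misses the threshold does not show equal levels.

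Of the other fusions, SRF-FOXO1 and SRF-RELA were compared with SRF-ICA1L directly. FOXO1 and RELA are transcription factors. The share of tested genes higher in SRF-ICA1L than in SRF-FOXO1 was 0.027% without the block and 0.442% with it, and the share lower was 0% and 0.469%, with 1125 genes in either direction at an unadjusted p under 0.05 without the block. Of the 87 genes, 5 were higher in SRF-ICA1L than in SRF-FOXO1: ICA1L (whose counts include construct reads), ROR2, EXTL1, KLHDC8A and ACP3. ROR2 was at 0.0644 ± 0.0559 CPM in SRF-FOXO1 and 0.473 ± 0.2602 CPM in SRF-RELA, and exceeded SRF-FOXO1 by 5.31 ± 0.70 (adjusted p 0.0151). EXTL1 was at 0.608 ± 0.333 CPM in SRF-FOXO1 and 4.28 ± 1.71 CPM in SRF-RELA, and exceeded SRF-FOXO1 by 3.33 ± 0.51 (adjusted p 0.0298). The call was kept for ROR2 in 2 of 6 (highest adjusted p 0.106, without SRF-FOXO1 replicate 3) and for EXTL1 in 2 of 6 (highest adjusted p 0.158, without SRF-FOXO1 replicate 3) of the fits without 1 library. With the block, 28 of the 87 were called in the same direction against SRF-FOXO1, among them CDH3 (1.44 (adjusted p 0.00466)), ITIH3 (3.70 (adjusted p 1.99e-06)), GDF6 (1.79 (adjusted p 0.00544)), LINC01614 (3.32 (adjusted p 0.00693)) and PLN (1.73 (adjusted p 0.04)). AGTR1 went the other way, with a log2 difference of -0.64 (adjusted p 0.0235) and 77.8 ± 16.5 CPM in SRF-FOXO1 against 49.6 ± 15.3 CPM in SRF-ICA1L.

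Against SRF-RELA, ICA1L was the only one of the 87 genes called, with or without the block, by 3.49 ± 0.16 (adjusted p 7.48e-09) on the log2 scale. ICA1L counts include reads of the construct, so this does not measure a response to the fusion. Over the tested genes, 0.00539% were called higher and 0.00539% lower without the block, and 0.00539% and 0.0108% with it. Of the 18544 genes, 568 had an unadjusted p under 0.05 in either direction without the block. Differences that miss the threshold do not show equal levels in SRF-RELA and SRF-ICA1L. CMKLR1 was at 73.99 ± 40.7 CPM in SRF-RELA, where the log2 difference was 0.0012 ± 0.48 (adjusted p 1). For ROR2 it was 2.51 ± 0.53 (adjusted p 0.999), and for ACTG2, at 245 ± 125 CPM, it was -0.31 ± 0.70 (adjusted p 0.999). The SRF-FOXO1, SRF-RELA and SRF-ICA1L comparisons with pMSCV share the pMSCV libraries, so their values are set side by side only through these direct tests.

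**Figure D5:**
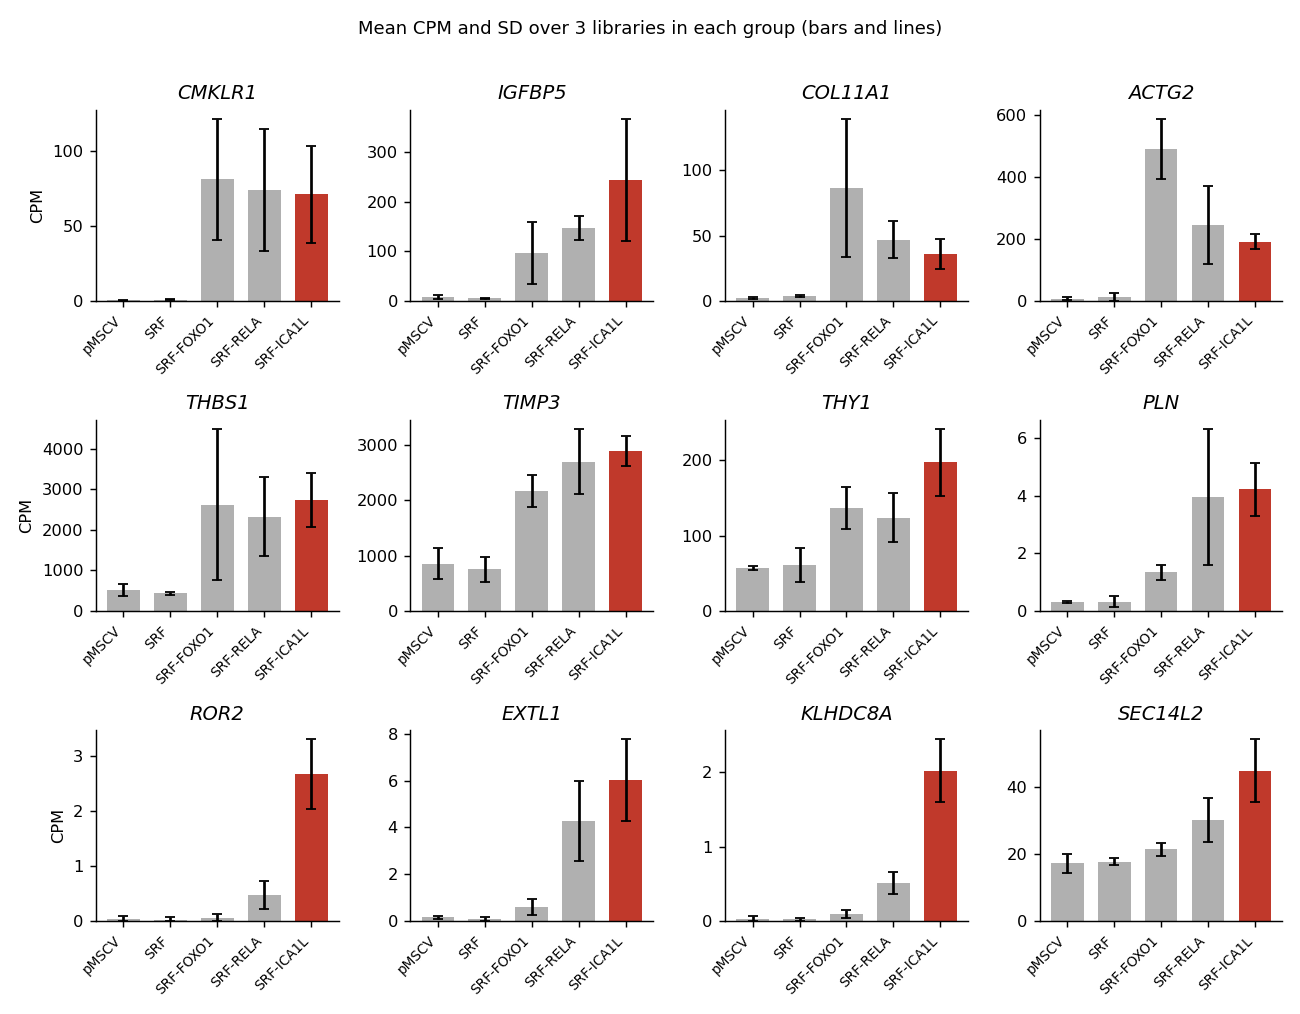
Mean CPM (bars from 0) with the SD over 3 libraries (lines) in 5 groups for 12 of the genes called in SRF-ICA1L against pMSCV, with SRF-ICA1L in red and a separate scale in each panel. ROR2, EXTL1 and KLHDC8A are higher in SRF-ICA1L than in SRF-FOXO1 by the direct test, while CMKLR1 is near 81.1 CPM in SRF-FOXO1, 73.99 CPM in SRF-RELA and 71.1 CPM in SRF-ICA1L; KLHDC8A, THY1 and SEC14L2 were added after their values were seen.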

How the data were processed

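RNA was counted in 18 MSC-hTERT libraries, 3 in each of 6 groups. The authors deposited 1 table of raw counts, with genes named by Ensembl identifier. The submitters' processing notes name FastQC 0.11.8, Trimmomatic 0.39, HISAT2 2.12.1, featureCounts, Subread 2.0.3 and GRCh38; the annotation and strand setting are not given in the sources used here. Unstranded counting would mix antisense pairs.

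From these counts, edgeR 4.0.16 in R 4.3.3 fitted all 18 libraries with 1 coefficient per group (filterByExpr, minimum count 10; TMM; robust quasi-likelihood, 12 residual degrees of freedom), which left 18544 of 61487 identifiers. The two-sided F test was adjusted by Benjamini-Hochberg over these genes, with calls under 0.05. A standard error is the absolute log2 fold change divided by the square root of F. CPM uses library totals without TMM factors. The edgeR fit without the block was run on simulated counts with known changes and no effect of the replicate number. The fit with the block was not tested in this way.

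Same-numbered SRF-ICA1L and pMSCV libraries deviated together from their group means (correlations over tested genes 0.386, 0.148 and 0.188 for numbers 1, 2 and 3, each over 0.1). By this rule the numbers pair the libraries; the pairing comes from the values, since the labels do not say what a number marks. pMSCV replicate 2 correlated more with SRF-ICA1L replicate 3 (0.162) than with its own number. Between the other pairs of groups, 41 of 42 same-numbered library pairs were over 0.1, with a median of 0.3755. Of 84 differently numbered pairs there, 1 was over 0.1, and the median was -0.181. With the block, 10 residual degrees of freedom were left, and edgeR's common biological coefficient of variation was 0.15, against 0.225 without.

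Named genes are SRF and ICA1L; ACTA2, ACTG2, CNN1, TAGLN, MYH11, MYOCD, MYL9, VCL, FOS, EGR1 and FN1; up to 12 higher and 10 lower genes called without the block, and 6 higher and 10 lower called only with it, by fold change, where the groups did not overlap and the mean log2 CPM reached 1 (with the block, also the same direction in 3 of 3 pairs); and up to 4 called members per list by p-value. Other list members are named where a list's calls are described. Members and lists were chosen with earlier results of these data known. A list's share of calls beside that of all tested genes is therefore a description, and no list was tested. The alternatives are given in the closing section.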

Additional observations from a re-analysis of the deposited data

Results flagged for a closer look

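SRF-ICA1L differed from another fusion, by the direct test, in the genes below (n is 3 libraries a group). ICA1L counts include reads of the construct, so the ICA1L difference does not measure a response to the fusion. Against SRF-FOXO1, ICA1L was higher by 3.82 ± 0.17 (adjusted p 2.42e-09), KLHDC8A by 4.43 ± 0.56 (adjusted p 0.00631), ROR2 by 5.31 ± 0.70 (adjusted p 0.0151), EXTL1 by 3.33 ± 0.51 (adjusted p 0.0298) and ACP3 by 3.07 ± 0.49 (adjusted p 0.0465) on the log2 scale. With the replicate block the edgeR adjusted p-values were 7.99e-12, 0.000606, 0.00185, 0.000534 and 0.00633. KLHDC8A kept the call in 5 of 6 (highest adjusted p 0.0524, without SRF-ICA1L replicate 2) and ACP3 in 2 of 6 (highest adjusted p 0.231, without SRF-ICA1L replicate 1) of the fits lacking 1 library. KLHDC8A was at 1.86, 2.501 and 1.71 CPM in SRF-ICA1L replicates 1, 2 and 3, and ACP3, prostatic acid phosphatase, at 8.87, 3.65 and 3.09 CPM; both were named after their values were seen. Against SRF-RELA, ICA1L was higher by 3.49 ± 0.16 (adjusted p 7.48e-09).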

How the results depend on the processing

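With 3 libraries a group, the counts of calls shifted when 1 was left out. Scaling by total count moved the median log2 fold change of all tested genes from -0.0054 to -0.12 and that of 4 of the 25 lists across 0: SRF and its cofactors, striated muscle genes, YAP-TEAD and TGF-beta targets, and muscle ion channels. The split of calls went from 85 higher and 2 lower to 87 and 12. With DESeq2 size factors 0 lists crossed 0, and with the block 1 did, interferon response genes, to 0.09.

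Against pMSCV 87 genes were called. The DESeq2 Wald test gave 327 (269 higher, 58 lower; the 87 remained), a filter of at least 10 counts in every library 38, and a fit of the 6 libraries alone 54, 43 of them among the 87. The replicate block gave 864, the block on the 6 libraries alone 499, and the block without numbers 1, 2 or 3 gave 694, 275 and 132. Without 1 library the count ranged from 29 to 148. DESeq2 size factors, total-count scaling, no filter and a minimum log2 fold change of 1 gave 86, 99, 84 and 84, of which 85, 85, 62 and 84 were among the 87. Against SRF, 145 genes were called, 878 with the replicate block and 48 to 111 without 1 library. Against SRF-FOXO1, 5 were called, 169 with the replicate block, 27 without the filter and 1 to 12 without 1 library. Against SRF-RELA, 2 genes were called, 3 with the replicate block and 2 in each fit without 1 library.

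Of the 26 named genes called without the block, the replicate block called 26, DESeq2 26, and fits without 1 library 12 to 26. Of the 90 named genes, MYH11, MYOCD, FOS and EGR1, called in no fit, changed sign and no others did. With the replicate block MYH11 was at -0.033, MYOCD at -0.15 and FOS at 0.31; with the replicate block on 6 libraries FOS was at 0.32. With the replicate block, without number 2 MYH11 was at -0.49 and MYOCD at -1.60, without number 1 MYOCD was at -0.30 and FOS at 0.44, and without number 3 FOS was at 0.72. Without 1 library MYH11 ranged from -0.16 to 0.45, MYOCD from -1.97 to 0.96, FOS from -1.01 to 0.54 and EGR1 from -0.40 to 0.92. The cause was not tested.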

Other observations

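Some genes outside the lists and the naming rule, chosen after their values were seen, rose in both fits. DUSP2, a nuclear phosphatase of MAP kinases, was at 0, 0.129 and 0.104 CPM in pMSCV replicates 1, 2 and 3 and at 6.61, 5.24 and 7.26 CPM in SRF-ICA1L, and the log2 change was 6.42 with a standard error of 0.73 (adjusted p 0.0005). BTG2, an antiproliferative gene of the p53 response, was at 4.32, 2.84 and 3.71 CPM in pMSCV replicates 1, 2 and 3 and at 10.7, 10.7 and 7.68 CPM in SRF-ICA1L, and the log2 change was 1.53 with a standard error of 0.23 (adjusted p 0.00399). CXXC5, a zinc finger protein that restrains WNT signalling, was at 34.1, 53.9 and 42.5 CPM in pMSCV replicates 1, 2 and 3 and at 77.1, 86.9 and 90.4 CPM in SRF-ICA1L, and the log2 change was 1.08 with a standard error of 0.16 (adjusted p 0.00412). SEC14L2, a lipid transfer protein, was at 20.5, 15.6 and 15.6 CPM in pMSCV replicates 1, 2 and 3 and at 40.8, 55.4 and 38.1 CPM in SRF-ICA1L, and the log2 change was 1.49 with a standard error of 0.19 (adjusted p 0.00186). These 4 genes stayed called in each of the 6 fits lacking 1 library.

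DSP (desmoplakin, a linker of desmosomes) was at 25.3, 13.4 and 8.73 CPM in pMSCV replicates 1, 2 and 3 and at 74.8, 179.9 and 105 CPM in SRF-ICA1L, and the log2 change was 3.04 with a standard error of 0.62 (adjusted p 0.0469), with its call kept in 1 of the 6 fits lacking 1 library (highest adjusted p 0.228, without pMSCV replicate 3). Its antisense gene DSP-AS1 was also called, and reads of the pair cannot be told apart without strand. MEST, an imprinted gene of mesoderm, was at 5.88, 15.3 and 15.3 CPM in pMSCV replicates 1, 2 and 3 and at 78.7, 101 and 197 CPM in SRF-ICA1L, and the log2 change was 3.48 with a standard error of 0.65 (adjusted p 0.027). It stayed called in 1 of the 6 fits lacking 1 library (highest adjusted p 0.169, without pMSCV replicate 1). COPG2IT1, its neighbour in the same imprinted region, was higher by 3.29 with a standard error of 0.65 (adjusted p 0.0331) and stayed called in 1 of the 6 fits lacking 1 library (highest adjusted p 0.201, without pMSCV replicate 1).

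With the block, HMGA2, a chromatin protein of undifferentiated mesenchyme, fell from 219, 169 and 255 CPM in pMSCV replicates 1, 2 and 3 to 178, 56.6 and 91.7 CPM in SRF-ICA1L. The log2 change was -0.88 without the block (adjusted p 0.498) and -1.01 with it (adjusted p 0.0114). SLC1A3, a glutamate transporter, went from 68.05, 75.01 and 55.96 to 28.4, 26.4 and 17.5 CPM in SRF-ICA1L. The log2 change was -1.35 without the block (adjusted p 0.0561) and -1.36 with it (adjusted p 0.000548). GDNF, a neurotrophic factor, went from 81.7, 69.5 and 73.03 to 41.02, 19.8 and 32.7 CPM in SRF-ICA1L. The log2 change was -1.16 without the block (adjusted p 0.0536) and -1.18 with it (adjusted p 0.00979).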
